A study of Mus musculus with 3 samples.

Results

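Of 30730 nuclei from mouse abdominal aortae, 1000 carried macrophage transcripts together with transcripts of both Fgf13 and Fat3, and are called Fgf13/Fat3 nuclei here. Each had at least 2 of the 6 macrophage genes Csf1r, Mertk, Adgre1, Ms4a7, Cd68 and Ctss, which is called the macrophage gate, and at least 1 UMI (unique molecular identifier, standing for 1 captured RNA molecule) of Fgf13 and of Fat3. Nuclei with 10 or more UMIs of Mmp12 or of F13a1 per 10000 were left out, as were nuclei with more than 1 gene of Cd5l, Abcg3, Cd38 and Ccdc148 or more than 1 of Adgre4, Gpr141, Klra2 and F10. The gate held 16903 nuclei, and the 15903 that were not Fgf13/Fat3 nuclei served as the comparison and are called other gated nuclei. The nuclei were thus chosen from their own counts, so every difference from other nuclei described below is a description and not a test.

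The data are droplet-based single-nucleus RNA libraries of whole abdominal aorta from ApoE-/- mice of the C57Bl/6 strain. These mice lack apolipoprotein E, clear cholesterol-rich lipoproteins poorly and form atherosclerotic plaques, and all of them ate a high fat diet. They breathed room air or cigarette smoke for 20 weeks, and the smoke-exposed aortae were split into those without and those with an abdominal aortic aneurysm (AAA), a local widening of the vessel. There were 3 libraries, 1 per group: Room Air Control (called room air), Cigarette Smoke no AAA (smoke) and Cigarette Smoke AAA (aneurysm). Diet and genotype are the same in all 3, and no library of mice with functional ApoE was analysed here. The number of animals per library, their age and their sex are not stated by the sources. Because each group is 1 library, no difference between groups has a replicate check, no p-value is given, and an effect of smoke or aneurysm cannot be told apart from differences between animals or preparations. All intervals are exact 95% intervals for counting error only.

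Macrophages of the artery wall take up modified lipoproteins, clear dying cells, present antigen and secrete proteases and cytokines, and they come from resident cells and from blood monocytes. Fgf13 encodes a fibroblast growth factor homologous factor, an intracellular protein that binds voltage-gated sodium channels and microtubules and is not secreted to act on growth factor receptors. Fat3 encodes a very large atypical cadherin, best known from cell shape and polarity in neurons of the retina. Neither gene is a usual macrophage marker. Fcrls, an Fc receptor-like scavenger receptor of mice, is known as a marker of microglia, the macrophages of the brain, and Zfp618 encodes a zinc finger protein.

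The room air library held 73891039 UMIs in 13189 barcodes, the smoke library 117247048 in 14859 and the aneurysm library 15634797 in 7348. The aneurysm library was the shallowest, with a median of 1443 UMIs per kept nucleus against 4058.5 in room air and 6225 in smoke. Apoe, the inactivated gene, was at 4.10, 5.67 and 7.03 CPM (UMIs of the gene per 1000000 UMIs) in other gated nuclei of room air, smoke and aneurysm. Pairs of libraries shared 26 to 46 barcodes, and none of these was an Fgf13/Fat3 nucleus in both libraries of a pair.

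The 1000 Fgf13/Fat3 nuclei were 375 from room air, 544 from smoke and 81 from aneurysm. Their median depth was 5056, 6726.5 and 2326 UMIs per nucleus, against 5099, 7326 and 1543.5 in other gated nuclei. In room air and smoke they were therefore about as deep as their neighbours, while in aneurysm they were deeper. The median mitochondrial share was 0.765%, 0.270% and 1.35%, against 0.569%, 0.224% and 0.687% in other gated nuclei. Levels below are UMIs summed over a group of nuclei, in CPM of that group's UMIs, always in the order room air, smoke, aneurysm. They are compared for the same gene between nuclei, since counts were not scaled to transcript length.

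Macrophage genes outside the rule were present. Ptprc, which encodes the leukocyte surface phosphatase CD45, was at 1342, 1292 and 849 CPM in Fgf13/Fat3 nuclei and 359, 409 and 99.6 CPM in nuclei outside the gate. C1qa, a chain of the complement recognition protein C1q, was at 103, 182 and 41.1 CPM against 17.6, 26.6 and 8.70 CPM. Both genes were therefore several times higher than in the rest of the aorta in every library. Of 18 macrophage genes outside the rule, all 18 were measured in each library, where measured means at least 20 UMIs in both groups together. Their median log2 ratio over other gated nuclei was 0.39, 0.40 and -0.32, beside -0.13, -0.07 and -0.17 over all measured genes. At a ratio of 1.5 or more, 3, 4 and 0 of the 18 were higher, beside 9.41%, 8.96% and 11.2% of all measured genes, and 1, 2 and 7 were lower, beside 22.5%, 22% and 28.3%. C1qa was among the 7 lower in aneurysm. Without nuclei carrying another lineage the smoke median was 0.14.

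Markers of other cell types were present, and for most lineages their sum was below that in other gated nuclei. At least 2 genes of 1 of 14 other lineages were detected in 32.0% (120), 42.5% (231) and 27.2% (22) of Fgf13/Fat3 nuclei, against 38.8%, 56.7% and 24.5% of other gated nuclei and 74.3%, 83.5% and 68.8% of nuclei outside the gate. Fibroblast markers summed to 249.9, 351 and 318 CPM in Fgf13/Fat3 nuclei, 549, 715 and 508 CPM in other gated nuclei and 1843, 1858 and 1439 CPM outside the gate, and 7 of 7 had a UMI. Endothelial markers summed to 368, 348 and 524 CPM, 907, 907 and 683 CPM, and 3037, 2829 and 2139 CPM in the same order, again with 7 of 7 detected. The source of these transcripts was not tested.

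What the rule itself fixed is given once. Fgf13 was at 1381, 1326 and 1765 CPM in Fgf13/Fat3 nuclei and 108, 165 and 118 CPM in other gated nuclei, and Fat3 was at 1943, 1581 and 3066 CPM against 218, 188 and 346 CPM. A typical Fgf13/Fat3 nucleus held more than the single UMI required. The median was 5, 6 and 2 UMIs of Fgf13 (up to 108, 101 and 87) and 6, 6 and 3 UMIs of Fat3 (up to 209, 160 and 135). At the lower edge lay 23, 26 and 12 nuclei with 1 UMI of each gene. For Mmp12, the protease gene used as an upper limit, the highest value inside was 9.65, 9.94 and 9.55 per 10000 and the lowest value outside among nuclei with both genes was 10.3, 10.2 and 11.2. Exactly 2 gate genes were found in 73, 50 and 25 of the nuclei. Before the limits, 642, 1042 and 100 gated nuclei had both genes. The limit on the Cd5l group met 204, 399 and 7 of these, and the Mmp12 limit met 114, 167 and 10, with some nuclei meeting more than 1 limit.

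Outside the macrophage gate, both genes were detected together in 57, 45 and 29 nuclei, or 1.25%, 0.970% and 0.625%. Macrophage nuclei with too few gate genes detected also fall outside the gate, so these shares are not a background free of macrophages. The rule's limits were not applied to them. The matching gated counts are those before the limits, 642 of 6473, 1042 of 9363 and 100 of 1067. Median depth outside the gate was 2581, 3599.5 and 1411.5 UMIs.

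Fgf13/Fat3 nuclei made up a similar share of gated nuclei in room air and smoke and a somewhat larger share in aneurysm. The share was 5.79% (5.24 to 6.39) of 6473 gated nuclei in room air, 5.81% (5.34 to 6.30) of 9363 in smoke and 7.59% (6.07 to 9.35) of 1067 in aneurysm. The ratio of smoke to room air was 1.00 (0.878 to 1.15) and that of aneurysm to smoke was 1.31 (1.02 to 1.65). Of all nuclei, the share was 3.40%, 3.89% and 1.42%, so the order turned with the denominator. Gated nuclei were 1067 of 5707 in aneurysm and 9363 of 14001 in smoke. Nuclei were isolated from frozen tissue with anti-nucleus beads, per the labels' protocols, and that step can set the share of a cell type.

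The share also moved with depth. In room air it was 1.04% of gated nuclei with 500 to under 1000 UMIs, 6.91% at 4000 to under 8000 and 4.99% at 16000 or more, and in smoke 0% (0 of 233, which allows up to 1.57%), 7.28% and 2.96%. With every nucleus thinned to 2000 UMIs and the rule applied again, 4.98%, 5.71% and 8.73% remained, the last being 29 of 332 nuclei. The aneurysm to smoke ratio depended on the definition. It was 1.00 with at least 4 UMIs of the 2 genes required and 0.970 without nuclei carrying another lineage. It was 1.54 with a minimum of 1000 UMIs, 1.44 with no mitochondrial limit, 1.60 with a gate of 4 genes and 1.53 after thinning. Depth, lineage markers and group moved together in the aneurysm library.

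**Figure D1:**
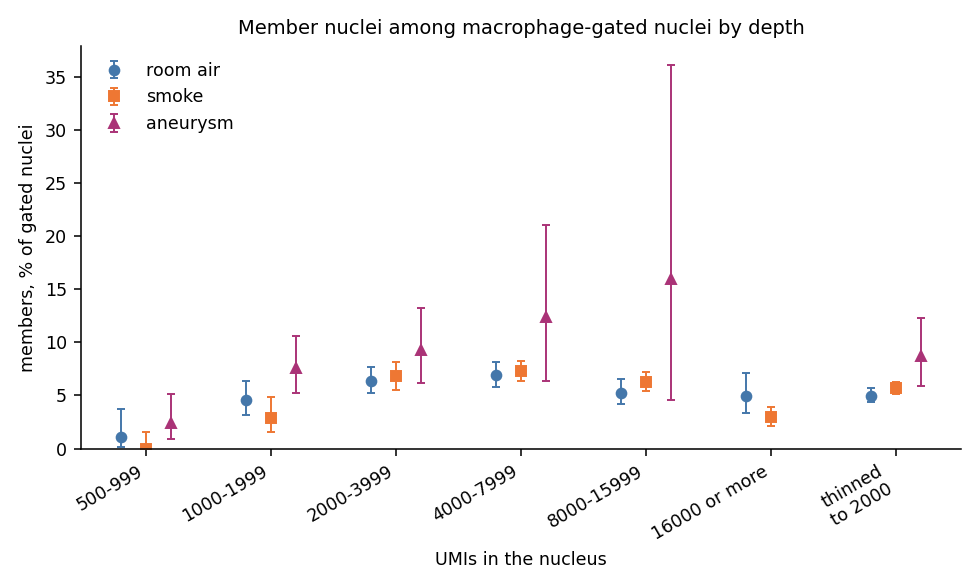
Share of Fgf13/Fat3 nuclei (members) among macrophage-gated nuclei (%, vertical axis) by UMIs per nucleus (horizontal axis), with all nuclei thinned to 2000 UMIs at the right; points are libraries and bars exact 95% intervals. Bins with under 20 gated nuclei are not drawn; the share is lowest in the shallowest bin in all 3 libraries, and after thinning it is 4.98% in room air, 5.71% in smoke and 8.73% in aneurysm.

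Zfp618, Ptchd1, Nes and Cdk6 were among the genes higher in Fgf13/Fat3 nuclei than in other gated nuclei. Across all 3 libraries, 65 of 9299 measured genes were at least 1.5 times higher at the interval bound nearest 1 (0.699%) and 124 were at least 1.5 times lower (1.33%). With nuclei thinned to 2000 UMIs the counts were 25 and 20, and without nuclei carrying another lineage 57 and 61. The 14 named here had the largest bounds among genes also no lower than outside the gate. Of these 14, all 14, then 13, then 8 were also higher at the bound than in Mmp12-high gated nuclei of room air, smoke and aneurysm, beside 7.56%, 7.24% and 3.36% of all measured genes. Above F13a1-high nuclei were 12, 13 and 13, beside 5.04%, 5.19% and 7.69%. No gene of the 14 was lower at the bound than in either class. Both classes are part of the other gated nuclei against which the 14 were chosen. These counts are thus in part set by that choice and are not independent support.

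Zfp618 had the largest ratio of the 14 in room air and smoke. Its level was 325, 268 and 176 CPM in Fgf13/Fat3 nuclei and 35.1, 30.8 and 36.6 CPM in other gated nuclei, and the ratio was 9.25 (8.50 to 10.1), 8.70 (8.12 to 9.32) and 4.81 (3.27 to 6.99). Mmp12-high nuclei held 26.0, 27.8 and 20.6 CPM, F13a1-high nuclei 17.5, 12.5 and 6.71 CPM and nuclei outside the gate 10.8, 8.99 and 18.2 CPM. Every class compared was thus below the Fgf13/Fat3 nuclei in every library. With each nucleus thinned to 2000 UMIs, Zfp618 was detected in 35.3%, 32.8% and 22.7% of Fgf13/Fat3 nuclei, 5.33%, 5.37% and 5.48% of other gated nuclei and 1.62%, 0.553% and 1.30% of endothelial nuclei, a class that serves as the free RNA level. Unthinned, the shares in Fgf13/Fat3 nuclei were 50.9%, 54.2% and 29.6%, and 35, 14 and 37 of them were too shallow to thin.

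Fcrls, the microglial scavenger receptor gene, was clearest in room air and smoke. It was at 107, 119 and 67.3 CPM in Fgf13/Fat3 nuclei and 16.1, 24.0 and 39.9 CPM in other gated nuclei, with ratios of 6.67 (5.79 to 7.67), 4.95 (4.49 to 5.45) and 1.69 (0.955 to 2.83). The aneurysm value rested on 18 UMIs, and its interval included 1. F13a1-high nuclei, the class with resident macrophage genes, held 47.5, 58.0 and 55.9 CPM, between the Fgf13/Fat3 nuclei and the Mmp12-high nuclei at 8.69, 18.7 and 10.3 CPM. Fcrls was therefore also found in that class.

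The promoters of Fat3, Zfp618 and Fcrls are shown because these 3 genes mark the nuclei described. They run from 250 bases before to 50 bases after the start, 5′ to 3′ on the gene's strand, from RefSeq on GRCm38.p6. Fat3 lies at chr9:16502005-16502304 on the minus strand, Zfp618 at chr4:62965317-62965616 on the plus strand and Fcrls at chr3:87263475-87263774 on the minus strand. Capitals mark GAGGAA, a core bound by the myeloid ETS factor PU.1, and TGANTCA, the AP-1 core, each searched on both strands.
Fat3: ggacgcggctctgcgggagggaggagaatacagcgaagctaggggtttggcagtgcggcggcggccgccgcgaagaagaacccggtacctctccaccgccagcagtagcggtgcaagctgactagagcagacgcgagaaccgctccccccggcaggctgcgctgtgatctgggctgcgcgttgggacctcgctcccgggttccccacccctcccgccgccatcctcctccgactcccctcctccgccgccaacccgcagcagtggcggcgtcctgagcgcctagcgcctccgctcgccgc
Zfp618: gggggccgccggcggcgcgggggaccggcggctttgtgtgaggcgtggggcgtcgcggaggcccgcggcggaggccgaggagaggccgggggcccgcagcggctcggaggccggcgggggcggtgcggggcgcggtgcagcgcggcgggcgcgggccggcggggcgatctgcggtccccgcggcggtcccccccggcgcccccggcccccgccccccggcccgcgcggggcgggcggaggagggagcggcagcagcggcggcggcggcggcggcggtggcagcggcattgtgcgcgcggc
Fcrls: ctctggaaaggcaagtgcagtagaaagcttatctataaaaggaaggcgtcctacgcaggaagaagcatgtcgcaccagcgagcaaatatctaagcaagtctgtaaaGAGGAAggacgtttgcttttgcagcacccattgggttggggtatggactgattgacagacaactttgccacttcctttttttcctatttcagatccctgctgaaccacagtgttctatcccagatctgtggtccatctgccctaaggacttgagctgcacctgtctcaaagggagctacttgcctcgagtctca
The G and C content was 71.3% in Fat3, 88% in Zfp618 and 48% in Fcrls. GAGGAA was found 1 time, in Fcrls, and TGANTCA in none of the 3. Among all 32851 promoters of this table, 28.3% hold GAGGAA and 7.81% hold TGANTCA. Of 15 genes named as higher in Fgf13/Fat3 nuclei with exactly 1 promoter in the table, 6 held GAGGAA and 0 held TGANTCA. Of 11 such genes named as lower, 5 and 2 did. Genes with more than 1 promoter were left out of these 2 sets but not of the 32851. A match says only that the letters are present.

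Ptchd1, a patched-domain gene known from the thalamus and from intellectual disability, had the largest bound of the 14. It was at 448, 437 and 277 CPM in Fgf13/Fat3 nuclei and 74.1, 94.4 and 60.5 CPM in other gated nuclei, with ratios of 6.04 (5.65 to 6.46), 4.63 (4.40 to 4.86) and 4.57 (3.39 to 6.13). Nes, the gene of the intermediate filament nestin, was at 73.2, 66.5 and 74.8 CPM against 10.2, 11.3 and 11.7 CPM, and it was detected in 103, 159 and 12 nuclei. Cacna1a, which encodes the pore subunit of the P/Q-type calcium channel, was at 592, 535 and 883 CPM against 200.2, 191 and 316 CPM. The difference was in the same direction in each library for all 3 genes. Myo16, an unconventional myosin of neurons, was at 623, 488 and 841 CPM against 191, 154 and 193 CPM. Shisa9, which encodes an auxiliary protein of AMPA-type glutamate receptors, was at 577, 644 and 643 CPM against 213, 289 and 182 CPM. Igsf9, a neuronal immunoglobulin superfamily gene, was at 56.2, 46.4 and 48.6 CPM, or 5.43 and 6.48 times the level of other gated nuclei in room air and aneurysm. Rtn4rl1, a relative of the Nogo receptor, was at 41.6, 60.4 and 97.2 CPM against 15.8, 18.0 and 23.4 CPM. The neuron markers Rbfox3, Snap25, Syt1, Nrxn3 and Cntnap2 summed to 18.1, 4.98 and 18.7 CPM in Fgf13/Fat3 nuclei against 31.9, 146 and 219 CPM outside the gate. No Fgf13/Fat3 nucleus held 2 of these 5 markers, and Rbfox3 and Snap25 were at 0 in all 3 libraries.

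The remaining named genes have roles in signalling, transport and the cell cycle. Cdk6, a cyclin-dependent kinase of the G1 phase, was at 1354, 1317 and 849 CPM in Fgf13/Fat3 nuclei and 464, 516 and 329 CPM in other gated nuclei, and it was detected in 345, 503 and 54 of the 375, 544 and 81 nuclei. Arhgap22, a GTPase-activating protein for Rac, was at 1187, 1338 and 949.8 CPM against 504, 613 and 358 CPM. Stap1, an adaptor that binds the CSF1 receptor, was at 161, 181 and 221 CPM against 58.5, 68.2 and 68.5 CPM. All 3 were higher by a factor between 2.18 and 3.22 in every library. Abcb4, a phospholipid transporter known from bile formation, was at 109.7, 120.2 and 135 CPM against 39.1, 40.9 and 38.0 CPM. Tm7sf3, a membrane protein gene, was at 144, 148 and 105 CPM against 36.4, 44.3 and 27.7 CPM. Hectd2os, a transcript opposite to Hectd2, was at 25.8, 24.7 and 131 CPM against 5.37, 6.25 and 16.4 CPM, and it was found in 32, 37 and 8 nuclei. Its UMIs cannot be told apart from those of the gene on the other strand, because the sources used do not state strand handling.

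**Figure D2:**
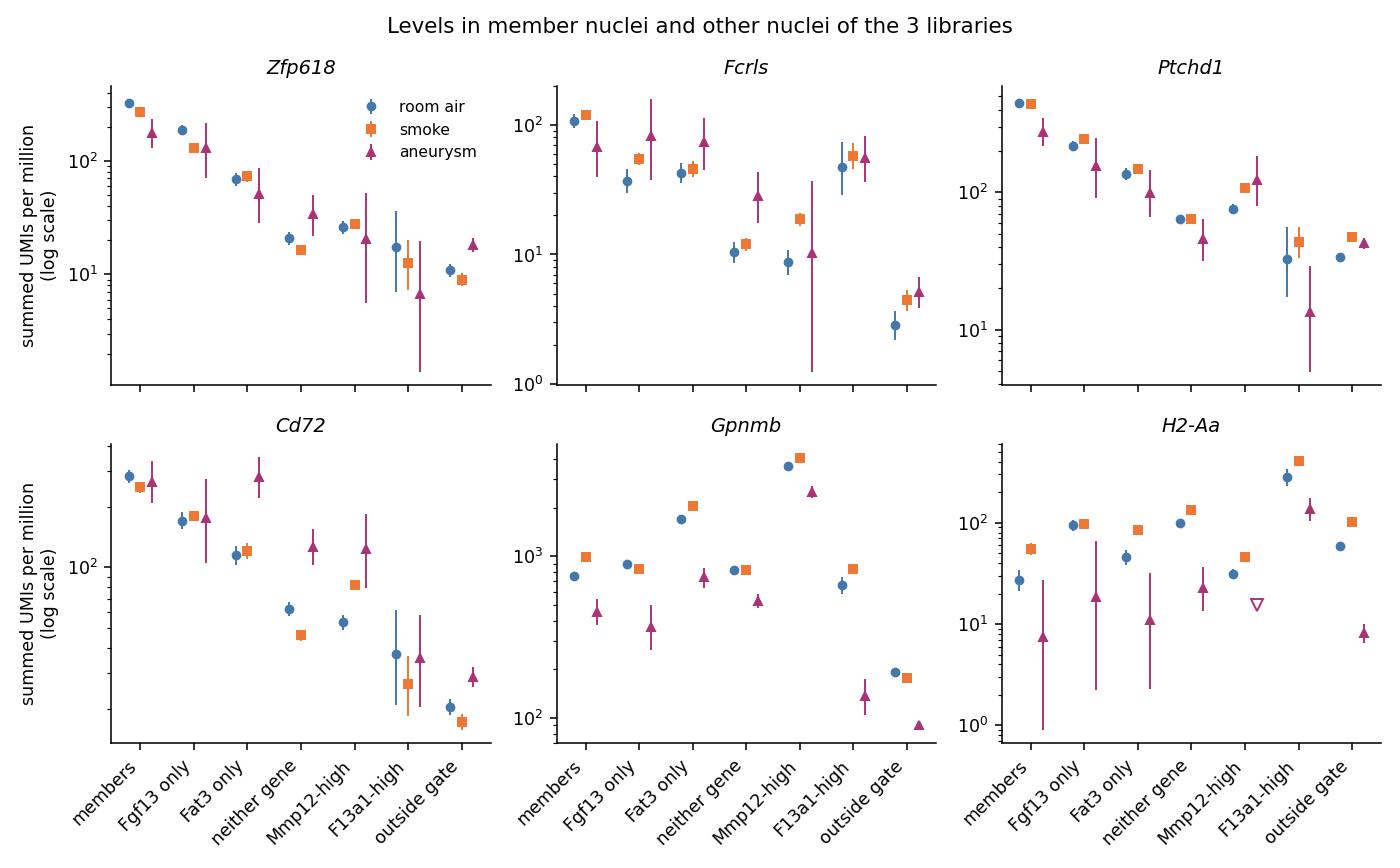
CPM (log scale, vertical axes) of 6 genes in Fgf13/Fat3 nuclei (members), in gated nuclei within the same limits with Fgf13 only, Fat3 only or neither gene, in Mmp12-high and F13a1-high gated nuclei and in nuclei outside the gate; points are libraries, bars exact 95% counting intervals, and an open triangle marks 0 UMIs drawn at the 3-count floor. Zfp618 and Ptchd1 are highest in members and step down over the next 3 classes in room air and smoke, while Gpnmb is highest in Mmp12-high nuclei and H2-Aa in F13a1-high nuclei.

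In room air and smoke alone, where there were more nuclei, 222 of 16266 measured genes were higher at the bound (1.36%) and 655 were lower (4.03%). The 10 leading higher genes of this wider count, listed after the values were seen, were Fcrls, Ch25h, Bik, Cd72, Map3k9, Psd3, Dach1, L1cam, Slamf9 and Stmn4. Cd72, an inhibitory lectin receptor of B cells and some macrophages, was at 283, 249 and 266 CPM in Fgf13/Fat3 nuclei against 71.8, 75.8 and 128 CPM in other gated nuclei. Ch25h, which encodes cholesterol 25-hydroxylase, was at 23.9, 21.0 and 15.0 CPM against 3.12, 3.96 and 7.97 CPM. Bik, a pro-apoptotic gene of the BH3 group, was at 30.8, 14.7 and 22.4 CPM against 3.83, 2.92 and 7.03 CPM. The aneurysm levels of Ch25h and Bik rested on 4 and 6 UMIs. Psd3 was at 1696, 1654 and 1683 CPM against 495, 544 and 1148 CPM, but F13a1-high nuclei held more of it, at 2849, 3023 and 2679.8 CPM.

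The genes lower in Fgf13/Fat3 nuclei included genes of Mmp12-high nuclei and genes of F13a1-high nuclei, both classes that the rule had removed. The 10 named genes were lower at the bound than in Mmp12-high nuclei for 10 of 10 in room air and 10 of 10 in smoke. In aneurysm 5 of 6 measured were, beside 4.9%, 3.62% and 3.72% of all measured genes in the 3 libraries. Against F13a1-high nuclei, 6 of 10 were lower in room air, 6 were lower and 1 higher in smoke, and 5 of 6 measured were lower in aneurysm, beside 5.09%, 6.19% and 8.26% lower of all. Because the comparison holds nuclei that the limits excluded, part of this list is set by the rule.

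Among genes of the F13a1-high class, Mrc1, the mannose receptor gene of resident macrophages, was at 50.8, 64.7 and 97.2 CPM in Fgf13/Fat3 nuclei, 179, 153 and 617 CPM in other gated nuclei and 2774, 2396 and 2376 CPM in F13a1-high nuclei. The ratio of other gated to Fgf13/Fat3 nuclei was 3.53 (2.97 to 4.22), 2.37 (2.10 to 2.67) and 6.35 (4.31 to 9.75). Ednrb, the endothelin receptor B gene, had 0, 2 and 0 UMIs in Fgf13/Fat3 nuclei, and was at 7.38, 10.8 and 114 CPM in other gated nuclei. With 0 set at a floor of 3 counts over the Fgf13/Fat3 nuclei, this is 6.39-fold and 10.2-fold lower in room air and aneurysm. That floor is not an interval bound. In smoke Ednrb was 23.9 (6.59 to 197) times lower on 2 UMIs. Ccl6, a CC chemokine of myeloid cells, was at 11.9, 6.11 and 3.74 CPM against 42.7, 25.6 and 124 CPM, and Tfrc, the transferrin receptor gene, at 8.47, 6.56 and 18.7 CPM against 42.5, 24.8 and 105 CPM. All 4 genes were higher in F13a1-high nuclei than in other gated nuclei, Tfrc at 92.5, 61.6 and 221 CPM.

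Of the other genes among these 10, all but Rgl1 were more abundant in Mmp12-high than in F13a1-high nuclei. Ksr2, a scaffold of the RAF and MEK kinases, was at 40.0, 29.6 and 3.74 CPM in Fgf13/Fat3 nuclei, 212, 164 and 75.5 CPM in other gated nuclei and 402, 328 and 206 CPM in Mmp12-high nuclei. Zfp462, a zinc finger gene, was at 28.5, 25.8 and 22.4 CPM against 157, 88.8 and 106 CPM, and Dock3, a guanine exchange factor, at 31.6, 31.7 and 3.74 CPM against 150.0, 127 and 51.6 CPM. The aneurysm values of Ksr2 and Dock3 were 1 UMI each. Rgl1, an exchange factor for Ral GTPases, was at 91.6, 92.1 and 41.1 CPM against 543, 359.9 and 439 CPM and was higher still in both excluded classes, at 861, 606 and 658 CPM and 1059, 1024 and 964 CPM. Cd300lf, an inhibitory myeloid receptor, was at 36.6, 33.0 and 18.7 CPM against 157, 96.3 and 98.9 CPM. Epb41l3, a membrane skeleton protein gene, was at 50.1, 36.4 and 22.4 CPM against 262, 209 and 104 CPM. In room air and smoke the leading lower genes, again listed after the values were seen, were Mgll, Il1a, Plpp3, Met, Tmem267, Hpse, Kynu and Slc7a11. Mgll, which encodes monoglyceride lipase, was at 32.0, 21.7 and 52.4 CPM against 198, 141 and 124 CPM, though 1 nucleus held 37 of its 83 UMIs in room air. Slc7a11, the cystine transporter, was at 10.0 and 9.51 CPM against 49.7 and 44.2 CPM in these 2 libraries.

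**Figure D3:**
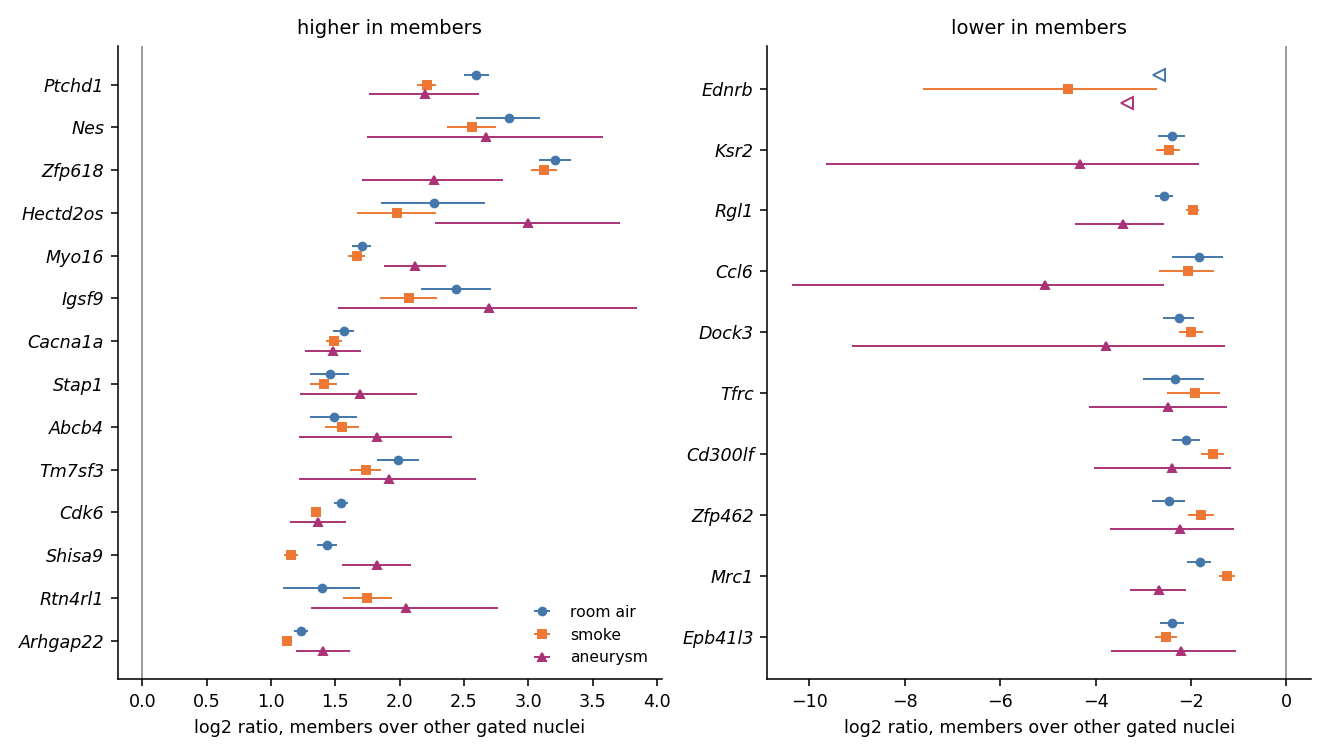
Log2 ratio (horizontal axis) of Fgf13/Fat3 nuclei (members) over other gated nuclei for the 14 genes named as higher (left) and the 10 named as lower (right) in all 3 libraries; points are libraries and bars exact 95% counting intervals. Open triangles mark Ednrb in room air and aneurysm, with 0 UMIs, at the 3-count floor; all points of each panel lie on 1 side of 0, and Ptchd1 in aneurysm has the ratio 4.57 (3.39 to 6.13).

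Among Fgf13/Fat3 nuclei, the levels of Ptchd1, Zfp618 and Fcrls are described by the amount of Fgf13 and Fat3. The nuclei were split by the 2 genes' summed UMIs into 2 or 3 (49, 55 and 25 nuclei), 4 to 15, and 16 or more. Ptchd1 was at 91.2, 312 and 158 CPM in the lowest group, 370.5, 375 and 195 CPM in the middle and 546, 497 and 378 CPM in the highest. Zfp618 was at 58.1, 113 and 59.3 CPM, 301, 215 and 161 CPM and 380.4, 328 and 231 CPM. In room air and smoke, Fcrls was at 45.6 and 27.7 CPM, then 58.9 and 102 CPM, then 144 and 144 CPM. The 3 genes thus stepped up with Fgf13 and Fat3 in room air and smoke. The split uses the 2 genes that chose the nuclei. The 3 genes were in turn picked as higher in these nuclei than in other gated nuclei. This step is thus in part set by those choices and is not independent support. Deeper nuclei are more often in the highest group, where the median depth was 7356 UMIs in room air against 3274 in the lowest, and the part of depth was not tested.

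Mrc1 ran the other way in room air, from 129 CPM in the lowest group to 18.4 CPM in the highest. Gpnmb, a lysosomal glycoprotein gene of lipid-laden macrophages, was at 796 and 599 CPM in the lowest group of room air and smoke, 1256 and 1415 CPM in the middle and 471 and 793 CPM in the highest. Nuclei with a UMI of Zfp618 (191, 295 and 24) held 437, 533 and 364 CPM of Gpnmb, against 1168, 1561 and 514 CPM in those without. The same split gave Ptchd1 levels of 604, 561 and 419 CPM and 242, 286 and 178 CPM.

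Gated nuclei within the same limits but with a single one of the 2 genes lay between Fgf13/Fat3 nuclei and nuclei with neither. This held for both single-gene classes in 14, 14 and 13 of the 14 named higher genes, the exception being Igsf9 in aneurysm. All of these classes are part of the other gated nuclei against which the 14 were chosen. That they lay below Fgf13/Fat3 nuclei is thus in part set by that choice and is not independent support. There were 443, 862 and 50 with Fgf13 alone, 450, 488 and 137 with Fat3 alone and 1959, 2883 and 374 with neither. Zfp618 was at 188, 129 and 129 CPM with Fgf13 alone, 68.8, 73.0 and 51.6 CPM with Fat3 alone and 20.8, 16.4 and 33.7 CPM with neither. Ptchd1 was at 219, 243 and 156 CPM, 136, 148 and 99.4 CPM and 63.9, 63.8 and 45.8 CPM in the same order. Other genes were higher with Fat3 alone than with Fgf13 alone: Myo16 was at 139, 178 and 285 CPM with Fgf13 alone and 298, 257 and 508 CPM with Fat3 alone, and Cacna1a at 107, 123 and 313 CPM and 316, 289 and 703 CPM. In room air both were lower with Fgf13 alone than in all other gated nuclei. The median depth was 3814, 5938.5 and 1440 UMIs with Fgf13 alone, below that of Fgf13/Fat3 nuclei, and the part of depth was not tested. With these 3 kinds of nuclei together as the comparison, in place of all other gated nuclei, 78 genes were higher in all 3 libraries and 329 were lower.

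Gene groups are described by the number of measured genes at least 1.5 times higher or lower at the value itself. The shares of all measured genes given above (9.41%, 8.96% and 11.2% higher, 22.5%, 22% and 28.3% lower) are the background. List medians are also given against the classes the rule removed, where the median over all measured genes was -0.03, 0.06 and 0.03 for Mmp12-high and 0.10, 0.10 and -0.11 for F13a1-high nuclei. The lists were drawn up with earlier results of these data known, so none is independent evidence.

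Antigen presentation genes were lower than in other gated nuclei, though not than in Mmp12-high nuclei. Of 7 class II histocompatibility genes, 6 of 7 were lower in room air, 6 of 7 in smoke and 5 of 6 in aneurysm, with median log2 ratios of -1.07, -0.84 and -2.44. Cd74, the invariant chain gene, was at 60.8, 115 and 7.48 CPM in Fgf13/Fat3 nuclei, 128, 209 and 89.6 CPM in other gated nuclei and 627, 1082 and 275 CPM in F13a1-high nuclei. Ciita, the master regulator of these genes, was at 20.8, 27.4 and 29.9 CPM against 60.6, 66.5 and 52.5 CPM. H2-Aa, a class II alpha chain gene, was at 27.3, 55.2 and 7.48 CPM, at or below its level of 59.5, 101 and 8.12 CPM outside the gate. Nuclei outside the gate included some with B cell or dendritic markers, so that level is not free RNA alone. The part of free RNA in the H2-Aa of Fgf13/Fat3 nuclei was not tested. The aneurysm values rest on 2 UMIs of Cd74 and 2 of H2-Aa. Against Mmp12-high nuclei the list's median was -0.28 in room air and 0.28 in smoke, and against F13a1-high nuclei -3.11, -2.84 and -4.19. Without nuclei carrying another lineage the smoke median over other gated nuclei was -1.61.

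Resident and perivascular macrophage genes were split. Of 13 genes, 3 of 11 measured were higher and 5 lower in room air, 3 and 10 of 13 in smoke, and 1 and 8 of 11 in aneurysm. The median log2 ratio was -0.47, -1.24 and -1.40. Igf1, a growth factor gene, was higher in each library, at 935, 1121 and 897 CPM against 596, 669 and 529.9 CPM. Folr2, a folate receptor gene of resident macrophages, was at 6.16, 13.4 and 11.2 CPM against 3.15, 4.47 and 14.5 CPM, and Stab1, a scavenger receptor gene, at 147, 210.0 and 142 CPM against 88.7, 106 and 213 CPM. Both were above other gated nuclei in room air and smoke and below them in aneurysm. Cd163, the haemoglobin scavenger receptor gene, had 3, 1 and 0 UMIs and Lyve1, the hyaluronan receptor gene, had 0, 1 and 1, so both were close to absent. Cd163 was among the genes lower than in other gated nuclei in each library. Lyve1 was also rare there, found without thinning in 0.279%, 0.930% and 4.16% of other gated nuclei. Against nuclei within the same limits the median was 0.05, -0.09 and -0.55.

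Genes of homeostatic microglia were partly higher in room air and smoke. Of 16 genes, 6 of 12 measured were higher in room air, 6 of 14 in smoke and 1 of 8 in aneurysm, while 2, 4 and 4 were lower. The median log2 ratio was 0.69, 0.40 and -0.64. Cx3cr1, the fractalkine receptor gene, was at 37.7, 41.9 and 15.0 CPM against 13.7, 19.1 and 22.0 CPM, with ratios of 2.76 (2.21 to 3.42), 2.19 (1.87 to 2.55) and 0.679 (0.178 to 1.86). Olfml3 was at 11.6, 16.1 and 11.2 CPM against 5.03, 7.05 and 6.56 CPM, and Gpr34, a lysophosphatidylserine receptor gene, at 4.24, 5.88 and 7.48 CPM against 0.679, 1.64 and 3.28 CPM, from 11, 26 and 2 UMIs. P2ry12, the purinergic receptor by which microglia are often defined, was at 35.8, 26.0 and 7.48 CPM against 27.5, 26.7 and 37.0 CPM. Sall1, the transcription factor of microglia, had 0, 0 and 0 UMIs. Tmem119 had only 8, 10 and 0 UMIs. It was among the genes higher than in other gated nuclei in room air, and was neither higher nor lower by 1.5-fold in smoke. Part of the list was thus higher, while Sall1 was absent. Without nuclei carrying another lineage the room air median was 0.31. Against Mmp12-high nuclei the median was 0.95, 0.95 and -0.01, and against F13a1-high nuclei 0.62, 0.07 and -0.40.

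Genes of lipid-associated macrophages were mixed, and their direction depended on the comparison. Of 16 genes, 1, 1 and 2 were higher and 7, 5 and 7 were lower, with medians of -0.42, -0.14 and -0.36. Gpnmb was at 752, 997 and 452 CPM against 2188, 2393 and 894 CPM, Fabp4, a fatty acid binding protein gene, at 10.0, 33.3 and 33.7 CPM against 108, 102 and 150.1 CPM, and Cd36, the scavenger receptor gene for oxidised lipoprotein, at 79.3, 99.6 and 93.5 CPM against 353, 295 and 226 CPM. Cd9, a tetraspanin gene, was the one higher in every library, at 412, 399 and 318 CPM against 247, 263 and 174 CPM. Trem2, the lipid receptor gene that gives these macrophages their usual name, was at 72.8, 98.2 and 52.4 CPM against 56.2, 69.2 and 49.7 CPM, with ratios of 1.29, 1.42 (1.28 to 1.57) and 1.05 (0.557 to 1.85). Against nuclei within the same limits, a comparison without Mmp12-high nuclei, the median turned to 0.24 and 0.53 in room air and smoke and stayed at -0.27 in aneurysm. Without nuclei carrying another lineage it moved the other way, to -0.61 in room air and -0.46 in smoke. Of 14 cholesterol handling genes, 0 were higher in any library and 4, 3 and 3 were lower. Abca1, the cholesterol exporter, was at 3252, 3286 and 2606 CPM against 3598, 3308 and 2978 CPM.

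Inflammatory genes did not move as 1 group. Of 18 genes, 5, 7 and 1 were higher and 6, 6 and 6 were lower, of 18, 18 and 12 measured. Cd14, the endotoxin co-receptor gene, was at 42.4, 59.3 and 22.4 CPM against 14.2, 28.6 and 30.5 CPM, and Ccl4, a chemokine gene, was at 28.9, 41.4 and 26.2 CPM against 18.0, 21.7 and 7.97 CPM. Nfkbiz, a nuclear regulator of NF-kappa B targets, was at 353, 347 and 280.5 CPM against 167, 213 and 218 CPM. Il1a, the interleukin 1 alpha gene, went the other way, at 2.31, 2.49 and 3.74 CPM against 22.3, 18.5 and 7.03 CPM, or 9.63 (4.41 to 26.3) and 7.44 (4.14 to 14.9) times lower in room air and smoke. Il1b, the interleukin 1 beta gene, was at 3.85, 7.02 and 3.74 CPM, from 10, 31 and 1 UMIs. C5ar1, the receptor gene for complement fragment C5a, was above other gated nuclei in all 3 libraries, at 36.6, 53.6 and 52.4 CPM against 11.6, 17.5 and 30.9 CPM. F13a1-high nuclei held 87.5, 119 and 101 CPM.

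Matrix protease genes were lower than in other gated nuclei. Mmp12, which the rule limits, is left out. Of 14 genes, 0, 0 and 1 were higher and 8 of 13, 10 of 13 and 6 of 12 were lower. The median log2 ratio was -0.85, -1.04 and -0.58. Plau, the urokinase gene, was at 35.0, 27.8 and 3.74 CPM against 70.8, 60.9 and 32.8 CPM and 171, 142 and 164 CPM in Mmp12-high nuclei, and Mmp19 was at 22.7, 19.9 and 18.7 CPM against 41.4, 32.3 and 32.4 CPM. Against nuclei within the same limits the smoke median was 0.08, and without nuclei carrying another lineage it was -0.54. Against Mmp12-high nuclei the median was -1.04, -1.03 and -1.10, and against F13a1-high nuclei it was 0.31, 0.51 and 1.51.

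For relatives and partners of Fgf13 and Fat3 the direction depended on the comparison. Of 15 other genes of the FGF family and its receptors, 1 of 10, 2 of 13 and 0 of 9 measured were higher, with medians of -0.58, -1.13 and -0.40. Fgf14, another intracellular homologous factor, was at 87.4, 47.8 and 67.3 CPM against 119.5, 144 and 198 CPM and 450.5, 468 and 762 CPM outside the gate. In room air 1 nucleus held 158 of its 227 UMIs. Of 12 sodium channel subunit genes, 3, 4 and 1 were measured and none was higher. Of 18 genes of Fat and Dachsous cadherins and the Hippo pathway, 0, 0 and 1 were higher of 17, 17 and 13 measured. Fat1 was at 43.9, 52.7 and 56.1 CPM against 98.5, 153 and 123 CPM and 334, 371 and 248 CPM outside the gate. These lists contain genes of fibroblasts and muscle, whose markers were also lower in Fgf13/Fat3 nuclei. Without nuclei carrying another lineage the smoke medians were 0.13 for the FGF list and 0.03 for the Fat list. Against Mmp12-high nuclei both lists were higher, with medians of 1.83 and 1.13 for the FGF list in room air and smoke and 1.25, 0.65 and 0.32 for the Fat list.

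Cell cycle genes were higher in smoke. Of 12 genes, 9 of 12 were higher and 0 lower in smoke, against 2 higher and 3 lower of 12 in room air and 1 of 4 in aneurysm. Mki67, the proliferation antigen gene, was at 38.1, 57.7 and 26.2 CPM in Fgf13/Fat3 nuclei against 32.7, 35.2 and 23.9 CPM in other gated nuclei, from 32, 55 and 3 nuclei with a UMI. Top2a, the topoisomerase of dividing cells, was at 24.6, 49.3 and 22.4 CPM against 26.5, 25.8 and 11.7 CPM. With nuclei thinned to 2000 UMIs the smoke median of the list turned to -0.09, and the cause was not tested.

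**Figure D4:**
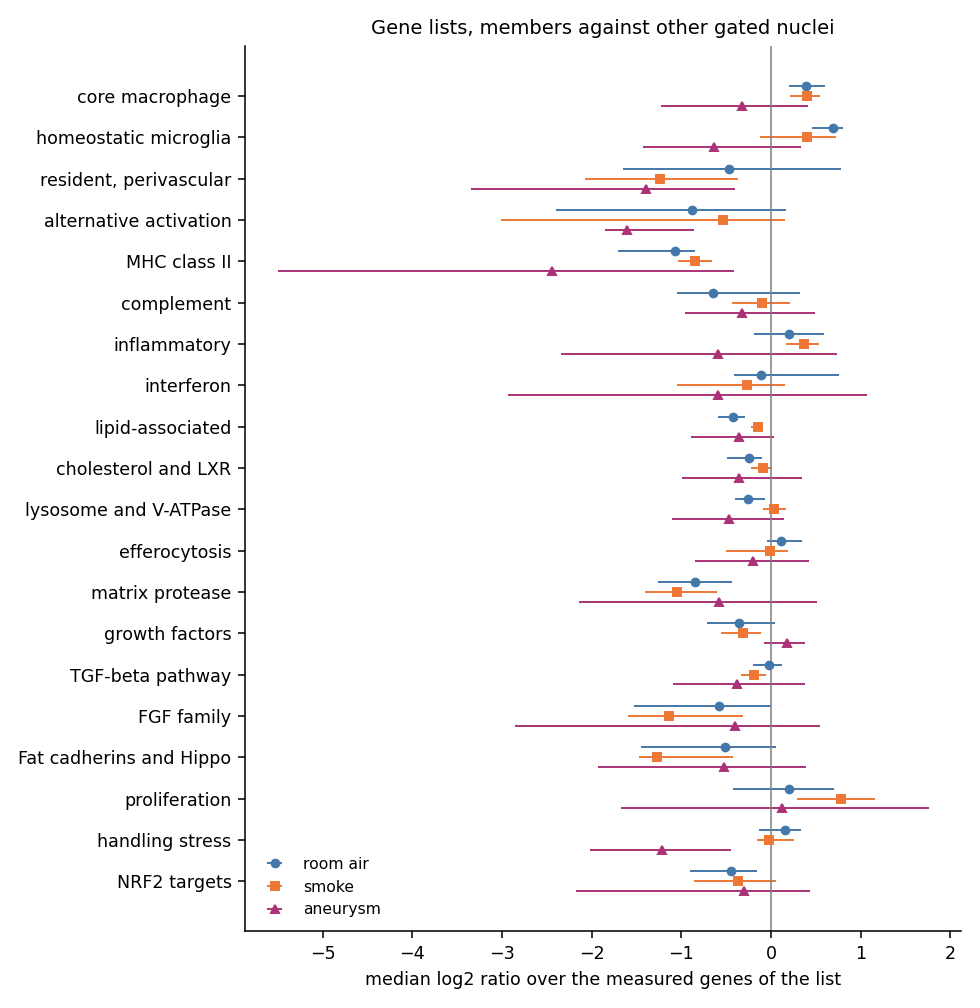
Median log2 ratio (horizontal axis) of Fgf13/Fat3 nuclei (members) over other gated nuclei over the measured genes of 20 gene lists; points are libraries, and bars run between the medians of the genes' lower and upper 95% bounds. The class II list lies left of 0 in all 3 libraries, at -1.07, -0.84 and -2.44.

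In Fgf13/Fat3 nuclei, smoke differed from room air in 162 higher (1.4%) and 76 lower (0.656%) genes of 11587 measured, counted at the bound of 1.5. The counts were 21 and 30 with nuclei thinned to 2000 UMIs, 70 and 46 without nuclei carrying another lineage, and the higher count was 280 with a mean over nuclei. Of the 162, 86 were also higher in other gated nuclei (53.1% of the 162 and 9.71% of the 886 higher there), and of the 76, 26 were also lower (34.2% of the 76 and 18.7% of the 139). In other gated nuclei, which are many more and give narrower intervals, the 886 and 139 were 4.63% and 0.726% of all measured genes. Medians over all measured genes were 0.07 in both kinds of nuclei.

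Of 8 genes named as higher in smoke, 4 (Fth1, Ftl1, Cst3 and H1f4) were also higher at the bound in other gated nuclei. Fth1 and Ftl1, which encode the ferritin chains that store iron, were at 107 and 265 CPM and 155 and 362 CPM in Fgf13/Fat3 nuclei of room air and smoke, ratios of 2.48 (2.17 to 2.84) and 2.34 (2.10 to 2.62). Cst3, the cystatin C gene, was at 21.9 and 73.8 CPM, a ratio of 3.36 (2.53 to 4.54). Ppia, the cyclophilin A gene, was at 25.8 and 67.4 CPM, a ratio of 2.61 (2.00 to 3.46). In other gated nuclei the ratios were 2.07, 1.93, 2.52 and 1.47 for Fth1, Ftl1, Cst3 and Ppia, and outside the gate Fth1 was at 58.9 and 121 CPM and Cst3 at 22.8 and 65.8 CPM. Fth1 and Cst3 were thus higher in smoke inside and outside the gate.

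Adgrg3, an adhesion G protein-coupled receptor gene, was at 6.16 and 21.7 CPM in Fgf13/Fat3 nuclei of room air and smoke, a ratio of 3.53 (2.06 to 6.42), against 1.36 (1.27 to 1.45) in other gated nuclei. Dda1, a subunit gene of a cullin ubiquitin ligase, was at 3.08 and 13.1 CPM, a ratio of 4.26 (2.03 to 10.3) against 1.24 (1.08 to 1.42). Ckap2l, a mitotic spindle gene, was at 2.70 and 10.9 CPM, a ratio of 4.03 (1.81 to 10.6) against 1.18 (0.999 to 1.41). Its smoke UMIs came from 17 of 544 nuclei. H1f4, a linker histone gene, was at 6.93 and 22.6 CPM, a ratio of 3.27 (1.96 to 5.73) against 2.01 (1.82 to 2.21). For Adgrg3, Dda1 and Ckap2l the interval in Fgf13/Fat3 nuclei lay above that in other gated nuclei. A difference of these ratios was not tested, as each rests on 1 library per group.

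Lower in smoke were 6 named genes. Aoah, which encodes an acyloxyacyl hydrolase that inactivates endotoxin, was at 313 and 117 CPM in Fgf13/Fat3 nuclei of room air and smoke, 2.66 (2.38 to 2.98) times lower, and 2.11 (2.07 to 2.15) times lower in other gated nuclei. Tnfsf13b, the gene of the B cell survival factor BAFF, was at 44.7 and 20.4 CPM, 2.19 (1.65 to 2.92) times lower, and at 9.51 and 8.93 CPM in other gated nuclei. In both libraries Tnfsf13b was higher in Fgf13/Fat3 nuclei than in other gated nuclei. Gvin1, an interferon-inducible GTPase gene, was at 42.4 and 19.7 CPM, Lrwd1, of the replication origin complex, at 12.7 and 3.85 CPM, and Cerkl, a ceramide kinase-like gene, at 18.9 and 7.70 CPM. Cmss1 was at 1335 and 751 CPM in Fgf13/Fat3 nuclei, 1339 and 665 CPM in other gated nuclei and 1331 and 777 CPM outside the gate, so it was lower in smoke in each of these classes.

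By list, at the value of 1.5 and beside 13.4% higher and 4.94% lower over all genes, class II genes were higher in smoke for 3 of 7, with a median of 0.50 in Fgf13/Fat3 nuclei and 0.47 in other gated nuclei. Without nuclei carrying another lineage the median in Fgf13/Fat3 nuclei was -0.07. C1qa was at 103 and 182 CPM, a ratio of 1.77 (1.54 to 2.04), against 1.54 (1.48 to 1.62) in other gated nuclei. Immediate early and heat shock genes, which respond to tissue handling, had a median of 0.49 against 0.59, so the smoke library carried more of them in both. Their part in the other differences was not tested. Cell cycle genes were higher for 4 of 9 with a median of 0.53, against -0.05 in other gated nuclei. Interferon genes had a median of -0.27 against 0.49, with 1 higher and 3 lower of 11. Of the NRF2 targets, which respond to oxidants, 1 was higher and 1 lower of 9, and of 3 measured genes regulated with the aryl hydrocarbon receptor, 1, Cyp1b1, was higher.

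Between aneurysm and smoke, Fgf13/Fat3 nuclei differed in 179 higher (1.67%) and 137 lower (1.28%) genes of 10717 measured. With a mean over nuclei the counts were 283 and 396. Of the 179, 85 were also higher in other gated nuclei (47.5% of the 179 and 9.16% of the 928), and of the 137, 63 were also lower (46.0% of the 137 and 13.4% of the 471). In other gated nuclei the 928 and 471 were 5.06% and 2.57% of all measured genes. The aneurysm side is 81 nuclei with 267417 UMIs, and its median depth was 2326 UMIs against 6726.5, so many of its values rest on few molecules.

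Ctsk, which encodes the collagen-degrading cathepsin K, had the highest bound in aneurysm. It was at 50.1, 34.4 and 149.6 CPM in Fgf13/Fat3 nuclei and 59.5, 61.5 and 46.9 CPM in other gated nuclei, and the aneurysm to smoke ratio was 4.35 (2.99 to 6.19) against 0.762 (0.619 to 0.929) in other gated nuclei. The 40 UMIs in aneurysm came from 11 nuclei. Ccnd3, a D-type cyclin gene, was at 106, 144 and 423 CPM, a ratio of 2.94 (2.39 to 3.60) against 1.79 (1.65 to 1.94). Anapc15, of the anaphase-promoting complex, was at 69.7, 61.1 and 206 CPM, a ratio of 3.37 (2.47 to 4.51) against 1.37 (1.21 to 1.54), from 15 aneurysm nuclei. Ahnak, a very large scaffold protein gene, was at 689.6, 523 and 1409.8 CPM, and Taco1, a mitochondrial translation activator, at 1079, 683 and 1787 CPM. Both were also higher in other gated nuclei, by 2.47 and 2.73 times.

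Among lower genes, Cxcl2, a neutrophil-attracting chemokine gene, had 199, 548 and 0 UMIs in Fgf13/Fat3 nuclei, which is 76.6 and 124 CPM without aneurysm, where 0 of 267417 UMIs were Cxcl2. With 0 set at the floor of 3 counts this is 11.1-fold lower than in smoke, while other gated nuclei were 3.05 (2.29 to 4.18) times lower. Noct, the gene of the circadian protein nocturnin, was at 84.7, 87.6 and 7.48 CPM, 11.7 (3.22 to 97.1) times lower on 2 aneurysm UMIs. Atf3, a stress-induced transcription factor, was at 353, 509 and 131 CPM, 3.89 (2.79 to 5.60) times lower, and 2.41 (2.17 to 2.69) times lower in other gated nuclei. Bcar3 was at 414, 392 and 89.7 CPM, 4.37 (2.93 to 6.84) times lower, and 3.74 (3.28 to 4.29) times lower in other gated nuclei. Cox7c, a subunit gene of cytochrome oxidase, had 77, 174 and 0 UMIs. With 0 set at the same floor it was 3.51-fold lower in aneurysm, against 1.48 (1.14 to 1.95) times in other gated nuclei.

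Over lists, at the value and beside 16.5% higher and 22.1% lower over all genes, immediate early and heat shock genes were lower in aneurysm for 9 of 10, with a median of -1.33 in Fgf13/Fat3 nuclei and 0.01 in other gated nuclei. Fos was at 200.2, 305 and 101 CPM in Fgf13/Fat3 nuclei and 135, 241 and 292 CPM in other gated nuclei. Inflammatory genes were lower for 11 of 15, with a median of -0.95 against -0.38. Class II genes were lower for 4 of 6, with a median of -2.78 against -1.14, and of -0.74 without nuclei carrying another lineage. Depth moved with the group, and its part in these differences was not tested. Lipid-associated genes were lower for 10 of 16, with a median of -0.76 against -0.74 in other gated nuclei. Resident macrophage genes had a median of -0.29 in Fgf13/Fat3 nuclei and 2.01 in other gated nuclei. The gate of the aneurysm library held 212 F13a1-high nuclei of 1067, against 239 of 9363 in smoke. The rule keeps these nuclei out of the Fgf13/Fat3 nuclei and in the comparison, so the 2 medians differ in part by construction. Macrophage genes outside the rule were lower for 10 of 18 with a median of -0.74, against -0.07 in other gated nuclei. Against F13a1-high nuclei of aneurysm, Fgf13/Fat3 nuclei had medians of -1.81 for immediate early and heat shock genes and -1.71 for inflammatory genes. The medians were -4.19 for class II and -0.91 for macrophage genes, while that of lipid-associated genes was 1.63. Contrasts of these lists with other gated nuclei can thus also differ in part by construction, and that part was not tested.

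**Figure D5:**
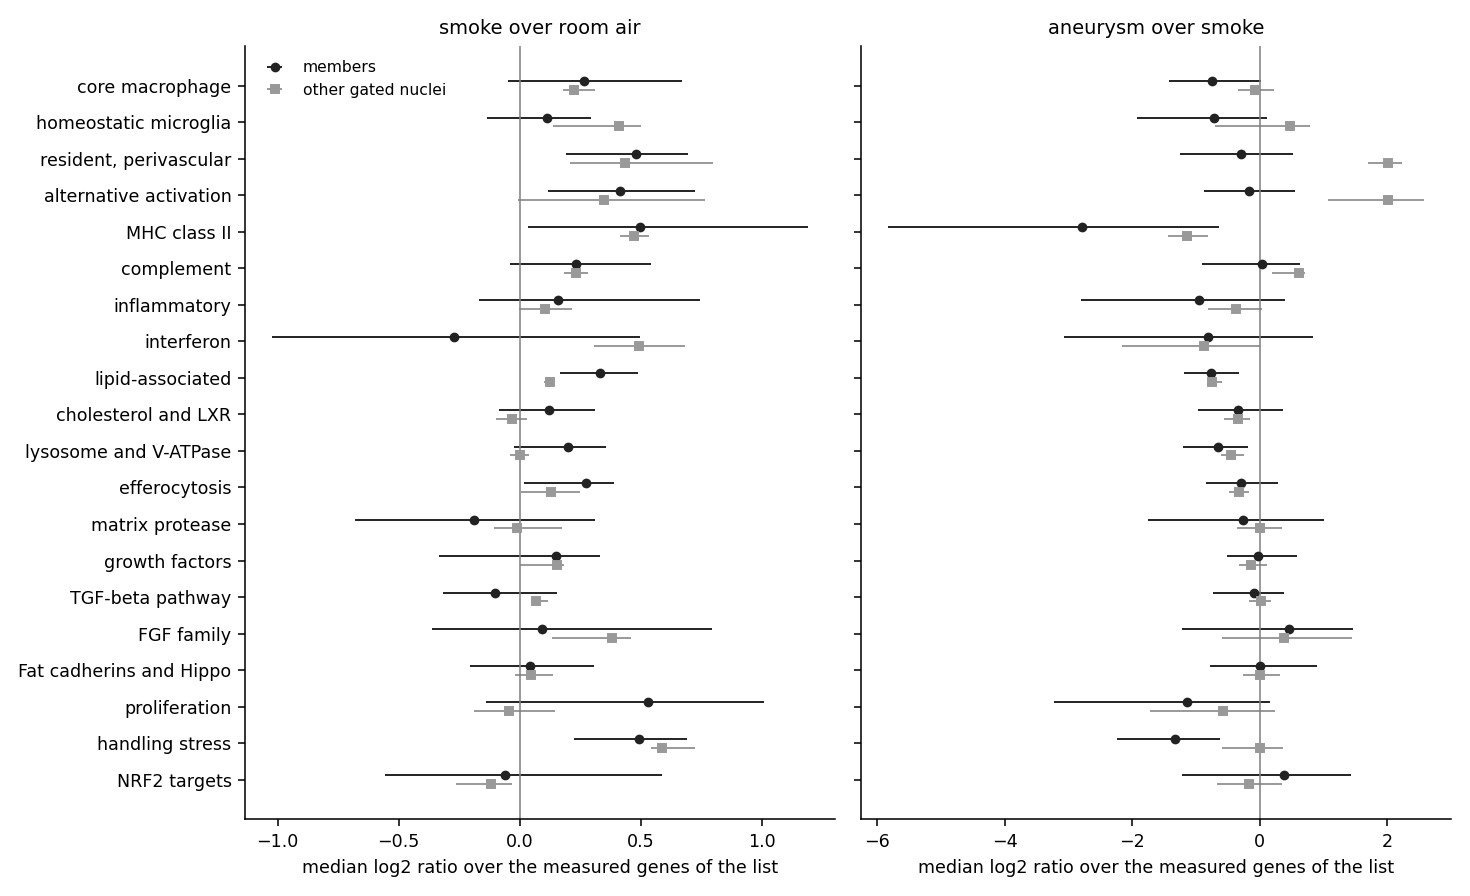
Median log2 ratio (horizontal axes) over the measured genes of 20 gene lists for smoke over room air (left) and aneurysm over smoke (right), in Fgf13/Fat3 nuclei (members, black) and other gated nuclei (grey); bars run between the medians of the genes' lower and upper 95% bounds, and each library is 1 sample. For resident genes in aneurysm over smoke, other gated nuclei lie at 2.01 and Fgf13/Fat3 nuclei at -0.29.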

How the data were processed

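Deposited files were 10x matrices of UMI counts per gene and nucleus for 3 libraries. Per the file headers they come from cellranger 8.0.1, while STAR, mm10 and Cell Ranger 2.2.0 are listed in the submitters' processing notes. Which version made the counts is not settled, so no file coordinates are used.

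Nuclei were kept if mitochondrial UMIs were under 5%, with a minimum of 300 genes and 500 UMIs. No doublet caller was run; nuclei with at least 2 genes of another lineage were counted, and left out as an alternative. Deposited counts were summed per library and class and divided by the total (CPM). Intervals are exact 95%: Poisson for a sum, conditional binomial for a ratio, Clopper-Pearson for a share. They cover counting error only. A gene was measured with 20 UMIs in both groups together. With 1 library per group there was no test. Computing used Python 3.11.15, numpy 2.4.6, scipy 1.17.1 and pandas 2.3.3, and was tested on simulated data.

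Named genes were ranked by the interval bound nearest 1, which had to reach 1.5 (in each library where Fgf13/Fat3 nuclei were set against others). They needed 30 UMIs in the higher group, a level there no lower than outside the gate, and no nucleus with over 25% of the UMIs. Rule genes, predicted, mitochondrial, ribosomal, haemoglobin and sex-linked marker genes were left out. Up to 14 higher and 10 lower genes were named against other gated nuclei, 8 per direction for smoke and 5 for aneurysm. The genes named from room air and smoke alone were added after values were seen, and members of the gene lists may be named too. The nuclei, the lists and the tests were chosen with earlier results of these data known. Alternatives are given in the closing section. Some items are not reported here.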

Additional observations from a re-analysis of the deposited data

Results flagged for a closer look

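Ctsk went opposite ways in aneurysm and in the other libraries. Its ratio of Fgf13/Fat3 nuclei over other gated nuclei was 0.842 in room air, 0.559 in smoke and 3.19 in aneurysm, the last from 40 UMIs in 11 nuclei. Cxcl2 went the other way, with ratios of 2.39 in room air, 1.88 in smoke and 0 in aneurysm, where Fgf13/Fat3 nuclei held 0 UMIs. Each group is 1 library, so neither difference was tested.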

How the results depend on the processing

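Of 1035 list medians under the alternatives, 952 stayed within the main value's interval, 76 left it, and 7 that had been past 1.5-fold changed sign. Medians under 1.5-fold are counted in the first 2 groups whatever their sign. Of 1261 values of named genes, 919 stayed within, 342 left it and 0 changed sign. Named genes were chosen for a bound past 1.5-fold in the same counts, so the lack of sign changes is in part set by that choice. The comparison with nuclei within the same limits and the one without the aneurysm library were chosen after seeing the data. The share ratio of smoke to room air was 1.18 without nuclei of another lineage, and that of aneurysm to smoke was 0.970 without them and 1.00 with at least 4 UMIs of the 2 genes. Under the other alternatives the aneurysm to smoke ratio was 1.44 to 1.60, above the main 1.31. The 65 genes higher in every library became 25 after thinning and 222 without the aneurysm library. The 124 lower genes became 31 with a gate of 4 genes, 20 after thinning, 61 without other lineages, 76 with ratios centred on the median gene, 329 against nuclei within the same limits and 655 without the aneurysm library. For smoke over room air, the 162 higher genes became 21 after thinning, 70 without other lineages and 280 with a mean over nuclei, and the 76 lower genes became 30 after thinning and 46 without other lineages. For aneurysm over smoke, the 179 higher genes became 283 with a mean over nuclei and 283 with no minimum count, and the 137 lower genes became 396 with a mean over nuclei. Medians that changed sign were complement in room air (0.21 with the gate of 4, 0.25 thinned), and in smoke matrix proteases against the same limits (0.0838), FGF (0.13) and Fat (0.0267) without other lineages and cell cycle thinned (-0.0943). The aryl hydrocarbon receptor median for aneurysm over smoke was 0.16 with no mitochondrial limit. Fewer genes were tested after thinning; the cause was otherwise not tested. Aneurysm over smoke was not run with a gate of 4 genes (24 aneurysm nuclei) or thinned (29), being under 50 nuclei. No paired analysis was possible because each group is 1 library. The 81 shallow aneurysm nuclei limit the precision of every value from that library.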
